A study of Mus musculus with 3 samples.

Results

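The genes that turn glucose into lactate, together with the hypoxia-inducible factor (HIF) system that can raise many of them, were examined in LT-HSCs, the long-term and self-renewing stem cells at the root of blood formation. The set held 37 genes, chosen by name from knowledge of the pathway, out of 37072 genes on the array. Earlier results of these data were known when the set was chosen. Each gene was read at its brightest probe, and the 37 genes had 88 probes in all. Marrow LT-HSCs, sorted as CD150+CD48-Flt3-CD34- LSK cells (LSK cells have Sca-1 and c-Kit on their surface and no lineage markers), came from C57BL/6J mice whose labels give an age of 11 weeks, and each genotype had 1 array. AtmsKO mice carried CAG-CreERT2, a tamoxifen-activated Cre under a promoter active in most tissues, with Atm flox/flox. Atmp38dKO mice carried CAG-CreERT2 with Atm flox/flox and p38α flox/flox, p38α being the product of Mapk14. WT mice were the controls, which the methods describe as lacking Cre and also given tamoxifen. The series text places the tamoxifen at about 5 weeks of age and the analysis 4 weeks later, which differs from the age on the labels. The number of mice behind each array is not given in the sources used here. The methods state that mice of both sexes were used in the study as a whole. The sex of the mice behind each array is not given in the sources used here. The series text names only CD34 and Flt3 for the sort within LSK cells, and the methods add CD41 as a marker that was absent.

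Glycolysis splits glucose into pyruvate through a chain of enzymes, several of which exist as isoenzymes encoded by separate genes. Pyruvate is then either reduced to lactate and exported, or enters mitochondria through pyruvate dehydrogenase, which pyruvate dehydrogenase kinases (PDKs) switch off. HIF, a dimer of an alpha and a beta subunit, is destroyed when oxygen is present because prolyl hydroxylases mark the alpha subunit, and LT-HSCs are known for their reliance on glycolysis in a poorly oxygenated marrow.

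With 1 array per genotype there was no spread between mice to set a difference against, so no test was made and every comparison is one between arrays. The signal is the background-corrected fluorescence intensity of a probe, and it is given here scaled so that the 75th percentile of all probes is equal on the 3 arrays. A log2 difference of 1 is a 2-fold difference. A gene was counted as 2-fold higher or lower if it also lay well above the local background on the brighter array. Spots printed repeatedly on an array differed by a median SD of about 0.05 on the log2 scale, which covers hybridization and scanning only.

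Between 68.9% and 77.7% of the 56605 probes were well above background on an array, and no spot was saturated. At its probes Atm was lower on the AtmsKO array than in WT, with log2 differences of -1.79 and -2.37. On the array labelled Atmp38dKO the same probes differed from WT by -0.22 and -1.07, and both Mapk14 probes differed from WT by 0.18 and 0.01. Mapk14 signals at the brighter probe were 484 in WT, 608 in AtmsKO and 548 in Atmp38dKO, and at the other probe 304, 284 and 307. Loss of Mapk14 was therefore not visible at these probes, whose position relative to the deleted exons is not given in the sources used here, and the third array is called the array labelled Atmp38dKO. All 10 LT-HSC markers were well above background on every array, with summed signals of 7982, 7683 and 6829 in WT, AtmsKO and Atmp38dKO and a median log2 difference of -0.49 for Atmp38dKO against WT. The 5 megakaryocyte markers summed to 1713, 3199 and 2002, of which Pf4 alone made up 1052, 2577 and 1366, and their median log2 difference in AtmsKO against WT was 0.006. The 9 granulocyte markers summed to 3251, 3819 and 3786, of which S100a9 alone made up 1713, 1947 and 2112. The 5 macrophage markers summed to 3100, 2682 and 2547, of which Csf1r alone made up 2611, 2241 and 2216. Adgre1, another of the macrophage markers, was not well above background in Atmp38dKO. The 6 erythroid, 5 B cell, 5 T cell, 3 mast cell and 5 endothelial or stromal markers each summed to no more than 813 on any array. The 3 genes of the markers gated out of the sort (Cd48, Cd34 and Flt3) were also well above background on every array. The part of any of these cells in the differences below was not tested, and in sorted bulk RNA a lower number of cells of a type and a lower amount of RNA per cell cannot be told apart.

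All 37 genes were well above background on all 3 arrays, and 29 of them lay at or above the 75th percentile of all probes. The glycolytic chain was thus measured on every array at every step, as the plot of signals by array shows.

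**Figure D1:**
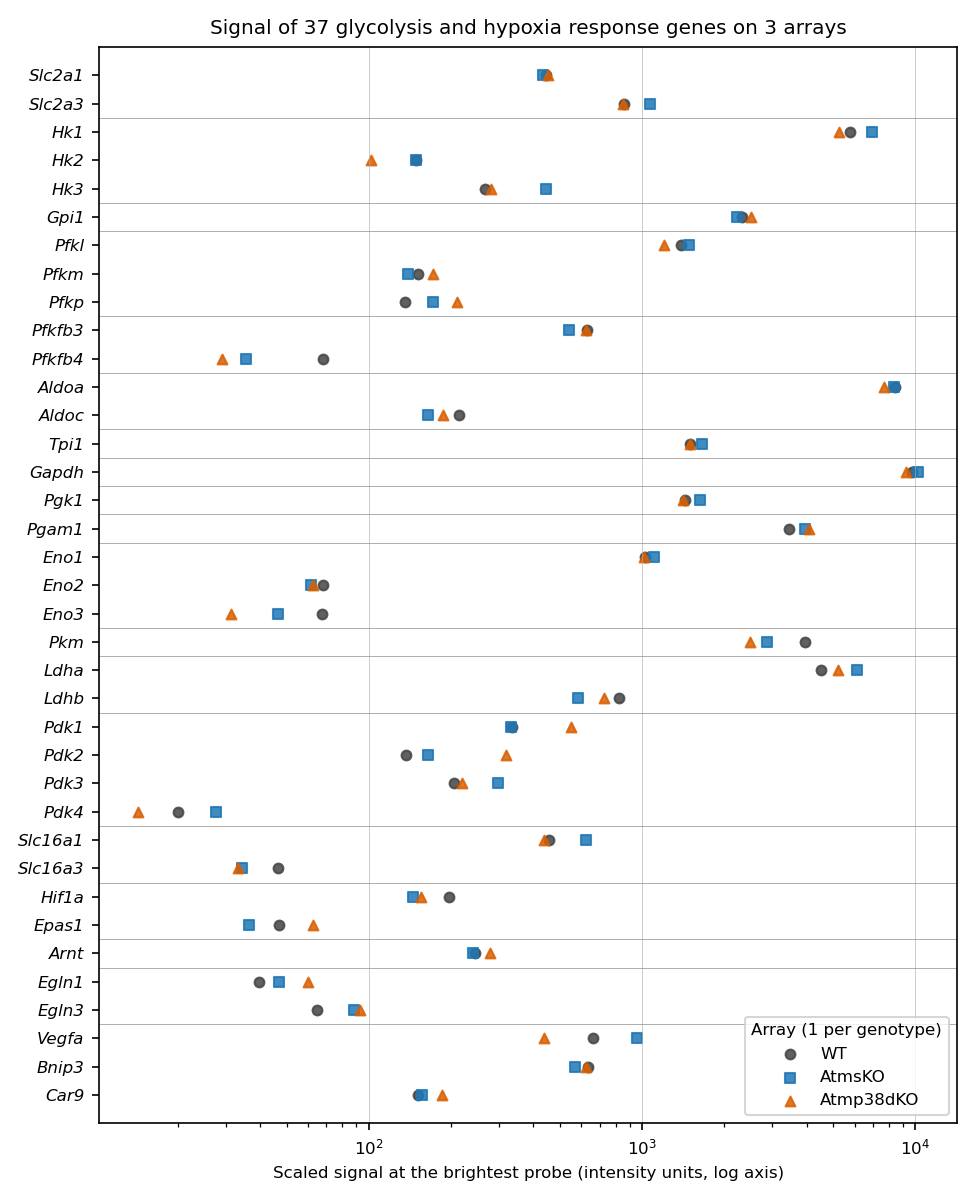
Scaled signal (log axis, intensity units) of each of the 37 genes at its brightest probe on the WT, AtmsKO and Atmp38dKO arrays, 1 array per genotype, with horizontal lines between enzyme steps. Most triplets of points lie close together, while Pfkfb4 (67.8 to 28.9), Eno3 (67.2 to 31.2), Pdk2 (137 to 319) and Vegfa (439 to 960) are spread over more than 2-fold.

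On the AtmsKO array none of the 37 genes was 2-fold higher or lower than on the WT array, where 3.94% of all 28866 genes tested were higher and 4.09% lower. On the array labelled Atmp38dKO 1 gene (Pdk2) was 2-fold higher and 2 genes (Pfkfb4 and Eno3) were 2-fold lower than in WT, against 4.02% higher and 4.49% lower of 30456 genes. Between the arrays labelled Atmp38dKO and AtmsKO no gene of the set was 2-fold higher and 1 (Vegfa) was 2-fold lower, against 3.75% and 3.72% of 30017 genes. Among the 10882 genes as bright as most of the set, those at or above the 75th percentile, 1.25%, 1.83% and 1.46% differed 2-fold in either direction in these 3 comparisons. Of the 29 genes of the set at that brightness, 0%, 3.45% (Pdk2 only) and 3.45% (Vegfa only) did so. Pfkfb4 and Eno3 were dimmer. In either direction 8.03%, 8.5% and 7.48% of all genes differed 2-fold. At 1.5-fold, 1 gene was higher (Hk3) and 1 lower (Pfkfb4) in AtmsKO against WT, beside 10.1% and 10.2% of all genes. In Atmp38dKO against WT 4 were higher (Pfkp, Pdk1, Pdk2 and Egln1) and 4 lower (Pfkfb4, Eno3, Pkm and Vegfa), beside 11% and 10.6%. In Atmp38dKO against AtmsKO 3 were higher (Pdk1, Pdk2 and Epas1) and 3 lower (Hk3, Pdk4 and Vegfa), beside 10.1% and 8.81%. The median log2 difference of the set was 0.04, -0.02 and -0.04, beside 0.01, 0.02 and -0.005 for all genes. The median size of the difference was 0.27, 0.19 and 0.25 in the set and 0.25, 0.26 and 0.24 over all genes. At or above the 75th percentile it was 0.196, 0.177 and 0.223 in the 29 genes of the set. Over all genes at that brightness it was 0.165, 0.168 and 0.175. The comparisons share arrays and are not independent of each other. Under another background correction (normexp), Pdk2 stayed 2-fold higher at 1.03, while Pfkfb4 at -0.61, Eno3 at -0.52 and Vegfa at -0.94 no longer reached 2-fold.

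**Figure D2:**
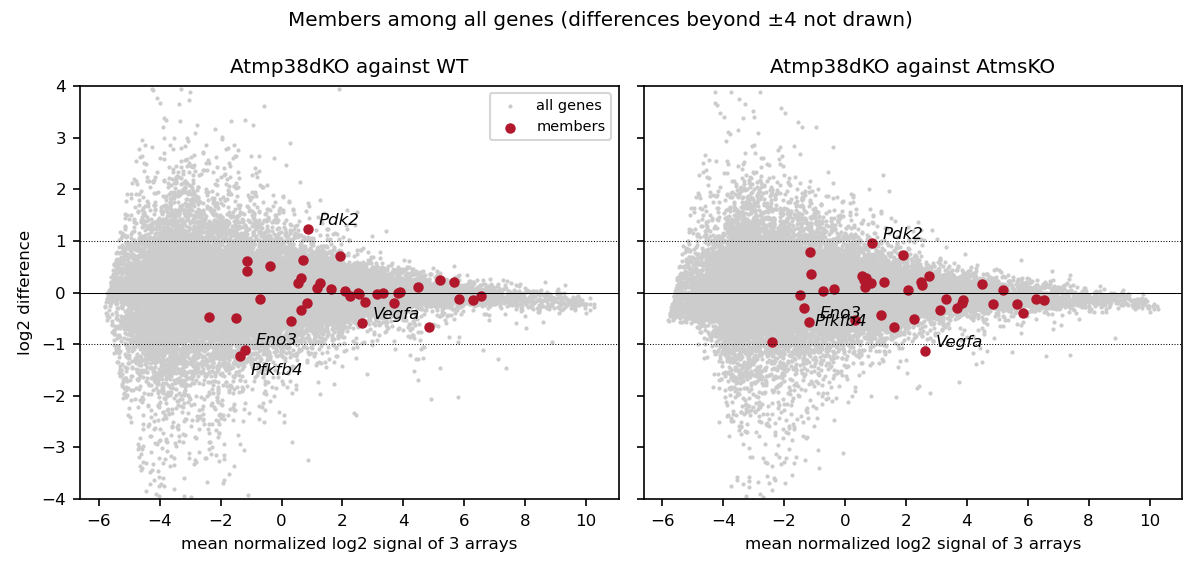
Log2 difference (vertical axis) of the array labelled Atmp38dKO against WT (left) and against AtmsKO (right), plotted over the mean normalized log2 signal of the 3 arrays, for all genes tested (grey) and the 37 genes of the set (red), with dotted lines at 2-fold. The set sits mostly among bright genes near 0, with Pdk2 above the upper line on the left, Pfkfb4 and Eno3 below the lower line on the left, and Vegfa below it on the right.

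Vegfa, the gene of the growth factor that drives blood vessel formation and a classic HIF target, was the only one of these 4 genes with other probes well above background, and they gave the same direction. Its signal was 662 in WT, 960 in AtmsKO and 439 in Atmp38dKO, a 2.19-fold lower signal in Atmp38dKO than in AtmsKO and a log2 difference of -0.59 against WT. The array labelled Atmp38dKO was the lowest of the 3 at each of the 4 Vegfa probes. At the other 3 probes the signals in WT, AtmsKO and Atmp38dKO were 586, 1028 and 295, then 566, 629 and 313, then 17.1, 14.8 and 9.28. The log2 difference against AtmsKO was thus between -0.67 and -1.80 over the 4 probes, and that against WT between -0.59 and -0.99. The order of AtmsKO and WT was not shared by the probes, with log2 differences of 0.54, 0.81, 0.15 and -0.21.

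Bnip3 and Car9 are further HIF targets, as are some genes described below with their step. Bnip3, which encodes a mitochondrial protein that promotes mitophagy, had signals of 636, 568 and 625 in WT, AtmsKO and Atmp38dKO. Car9, a carbonic anhydrase that helps to export acid, had signals of 151, 156 and 185. Neither differed by more than 0.29 on the log2 scale in any comparison at its brightest probe. The second Car9 probe had 31.0, 49.6 and 30.9, highest in AtmsKO, with a log2 difference of -0.69 for Atmp38dKO against AtmsKO and -0.01 against WT.

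In both comparisons with the array labelled Atmp38dKO the 4 PDK genes were the step with the widest gap between isoenzymes, 1.70 against WT and 1.90 against AtmsKO, whereas in AtmsKO against WT their gap was 0.56 and that of lactate dehydrogenase 0.93. This gap runs from the lowest to the highest gene of a step. It tends to widen with more genes, and all other steps had fewer than the PDKs. Pdk2 had signals of 137 in WT, 165 in AtmsKO and 319 in Atmp38dKO, 2.33-fold higher in Atmp38dKO than in WT and 1.94-fold higher than in AtmsKO. Pdk1, a known HIF target, had 335, 330 and 550, Pdk3 205, 297 and 219, and Pdk4, which fasting and fatty acids induce in other tissues, 19.96, 27.7 and 14.3. At their brightest probes Pdk1 and Pdk2 were thus highest on the array labelled Atmp38dKO and Pdk3 on the AtmsKO array. Pdk4 was lowest on the array labelled Atmp38dKO. Against AtmsKO the log2 differences of Atmp38dKO were 0.74 for Pdk1, 0.95 for Pdk2, -0.44 for Pdk3 and -0.95 for Pdk4. The log2 difference of Pdk2 exceeded that of Pdk4 by 1.70 against WT and by 1.90 against AtmsKO, and it exceeded that of Pdk3 by 1.12 and 1.39. Pdk1 exceeded Pdk4 by 1.20 against WT and 1.69 against AtmsKO, and it exceeded Pdk3 by 1.18 against AtmsKO. Pdk2 and Pdk4 were read by 1 probe each, so no other probe bears on them, and the signals of Pdk4 lay near the lowest scaled signal well above background, which was 5.50, 6.67 and 4.42 on the 3 arrays. Pdk1 had 5 probes, and at the brightest Atmp38dKO was above WT by 0.72. The others did not share a direction, with -0.32, -0.10, 0.26 and 0.12. Against AtmsKO they gave -0.48, 0.70, 0.03 and 1.097. At the second probe of Pdk3 the log2 differences were 0.45 for AtmsKO against WT and 0.45 for Atmp38dKO against WT.

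PFKFB enzymes make and break down fructose 2,6-bisphosphate, the main activator of phosphofructokinase. Pfkfb4 had signals of 67.8 in WT, 35.4 in AtmsKO and 28.9 in Atmp38dKO, so WT was highest, with 1.91-fold and 2.34-fold lower signals on the mutant arrays. Pfkfb3, whose enzyme strongly favours synthesis, had 627, 539 and 625. The log2 difference of Pfkfb3 against WT therefore exceeded that of Pfkfb4 by 0.72 in AtmsKO and 1.22 in Atmp38dKO. The second Pfkfb4 probe was not well above background on any array, and the second Pfkfb3 probe was lower in AtmsKO than in WT by a log2 difference of -1.30, with signals of 83.6, 33.9 and 58.5 in WT, AtmsKO and Atmp38dKO.

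Enolase makes phosphoenolpyruvate. Eno3, best known as the muscle isoenzyme, had signals of 67.2 in WT, 46.5 in AtmsKO and 31.2 in Atmp38dKO, 2.15-fold lower in Atmp38dKO than in WT. Eno1, the isoenzyme of most tissues, had 1023, 1106 and 1013, and Eno2, best known from neurons, had 68.0, 61.7 and 62.6. Only Eno3 of the 3 was 2-fold apart between any arrays. Its log2 difference in Atmp38dKO against WT lay 1.09 below that of Eno1 and 0.99 below that of Eno2. Eno3 was read by 1 probe.

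Over the 11 steps with more than 1 gene in the set there were 22 pairs of genes, or 66 pairs over the 3 comparisons. They are called isoenzymes here, although pairs of transporters and of HIF alpha subunits were counted among them. The latter pair used the Hif1a probe on the opposite strand, described below. In 9 of these 66 the log2 differences lay at least 1 apart, none in AtmsKO against WT, 5 in Atmp38dKO against WT and 4 in Atmp38dKO against AtmsKO. They came from 3 steps, the PDKs, PFKFB and enolase. Different probes of a single gene also gave different values on these arrays. Over all genes the gap in log2 difference between the brightest probe and another probe of the same gene had a median size of 0.37 to 0.39, and in 5% of cases it exceeded about 1.5. Of the 66 isoenzyme gaps, only the pair of Pdk2 and Pdk4 in both comparisons and that of Pdk1 and Pdk4 against AtmsKO were larger than that. All of these involve Pdk4, a dim gene read by 1 probe. They are the largest of 66 gaps, and 5% of gaps between probes of 1 gene are as large. The yardstick therefore cannot tell them from disagreement between probes. It is narrower for bright probes. Where the other probe lay at or above the 75th percentile, 5% of gaps exceeded 0.88 to 0.89. Among pairs of genes that bright, Pdk2 and Pdk3 (1.12 against WT, 1.39 against AtmsKO) and Pdk1 and Pdk3 (1.18 against AtmsKO) lay further apart. So did Ldha and Ldhb (0.93 in AtmsKO against WT). Pdk2 had 1 probe, and other probes of Pdk1 and Ldha did not share their differences.

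The promoters of the 4 genes that were 2-fold apart are shown because each of these genes belongs to a pathway with known HIF targets, together with that of Bnip3, which did not differ. They are the 250 bases before the annotated start, 5′ to 3′ on the strand of the gene, from RefSeq on GRCm38.p6, and capitals mark the core letters of the hypoxia response element, ACGTG or GCGTG, on either strand. Overlapping matches were merged into 1 site. ACGTG is also part of the E-box CACGTG, which other factors bind.
Vegfa promoter, chr17:46032378-46032627, minus strand: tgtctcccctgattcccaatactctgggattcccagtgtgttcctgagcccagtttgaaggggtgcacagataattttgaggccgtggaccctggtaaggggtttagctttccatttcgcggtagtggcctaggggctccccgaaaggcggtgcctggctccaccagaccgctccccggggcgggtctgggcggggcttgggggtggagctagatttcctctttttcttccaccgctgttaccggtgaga
Pdk2 promoter, chr11:95041372-95041621, minus strand: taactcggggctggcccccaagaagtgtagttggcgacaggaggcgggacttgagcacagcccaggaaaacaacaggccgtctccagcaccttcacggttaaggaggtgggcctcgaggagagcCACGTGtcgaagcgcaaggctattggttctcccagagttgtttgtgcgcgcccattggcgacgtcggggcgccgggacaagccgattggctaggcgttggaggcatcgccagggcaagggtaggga
Pfkfb4 promoter, chr9:108991652-108991901, plus strand: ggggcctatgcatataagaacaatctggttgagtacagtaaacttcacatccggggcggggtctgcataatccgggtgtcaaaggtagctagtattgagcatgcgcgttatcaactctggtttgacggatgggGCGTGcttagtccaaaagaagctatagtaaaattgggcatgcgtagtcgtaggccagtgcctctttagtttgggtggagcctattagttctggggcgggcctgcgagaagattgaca
Eno3 promoter, chr11:70656926-70657175, plus strand: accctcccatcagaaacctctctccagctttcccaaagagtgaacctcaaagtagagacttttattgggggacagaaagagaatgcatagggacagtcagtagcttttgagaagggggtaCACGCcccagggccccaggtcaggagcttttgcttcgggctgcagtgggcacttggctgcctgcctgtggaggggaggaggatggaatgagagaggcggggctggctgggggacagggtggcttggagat
Bnip3 promoter, chr7:138909507-138909756, minus strand: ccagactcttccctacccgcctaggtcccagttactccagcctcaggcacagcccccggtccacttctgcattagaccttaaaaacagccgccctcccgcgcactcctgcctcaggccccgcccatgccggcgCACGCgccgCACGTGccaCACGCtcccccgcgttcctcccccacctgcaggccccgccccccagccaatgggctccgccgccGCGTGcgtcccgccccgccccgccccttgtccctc

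A window was on file for 35 of the 37 genes, all but Slc2a3 and Epas1. At least 1 site was found in a window of 32 of these 35 genes (91.4%), against 41.5% of 27025 genes, and the exceptions were Gpi1, Tpi1 and Eno2. Genes of the set had more windows, a mean of 1.43 against 1.22, and so more places for a site. By windows, the letters were in 80% of 50 windows of the set and in 38.6% of 32851 windows. Some windows of a gene overlapped, as for Eno1, Aldoa and Pfkm, so a single site can count in more than 1 window. The windows of the set were richer in G and C, with a median of 59.4% against 52.4%. Among windows between 55.2% and 66.4% G and C, 53.8% of 8825 held a site, and 80.8% of the 26 from the set. The window of Vegfa shown above held no site and its other window held 2, that of Bnip3 held 4, as many as that of Pdk3, and those shown for Pdk2, Pfkfb4 and Eno3 held 1 each. The 4 genes that were 2-fold apart all had a site in at least 1 window, as did most genes that were not. For Vegfa this rests only on its other window, chr17:46025164-46025413. On the minus strand that window lies downstream of the one shown, and whether it acts as a promoter in these cells was not tested. A match of letters is not a binding site.

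One enzyme gene from each step between glucose 6-phosphate and phosphoenolpyruvate, 8 in all, gave like signals on the 3 arrays, unlike Eno3 and Pfkp of the same steps. Gpi1, which isomerizes glucose 6-phosphate, had signals of 2323, 2223 and 2505 in WT, AtmsKO and Atmp38dKO. Aldoa, which splits fructose 1,6-bisphosphate, had 8455, 8379 and 7679. Gapdh, which oxidizes glyceraldehyde 3-phosphate, had 9721, 10232 and 9269. In each of these genes the arrays differed by at most 1.13-fold. All 7 Gapdh probes differed from WT by log2 values between -0.04 and 0.20 in AtmsKO and between -0.22 and -0.07 in Atmp38dKO. Tpi1, which interconverts the triose phosphates, had signals of 1496, 1663 and 1504, and Pgk1, the first ATP-forming enzyme of the chain, had 1433, 1631 and 1416. Pgam1, which shifts the phosphate of phosphoglycerate, had 3454, 3956 and 4067, so both mutant arrays were above WT by 0.20 and 0.24. With Pfkl and Eno1 added, these 8 enzymes differed from WT by -0.06 to 0.20 in AtmsKO and by -0.20 to 0.24 in Atmp38dKO.

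In glucose uptake and phosphorylation no gene was 2-fold apart at its brightest probe. Slc2a1, the widely expressed glucose transporter GLUT1, had signals of 446, 435 and 453 in WT, AtmsKO and Atmp38dKO, and Slc2a3 (GLUT3) had 861, 1071 and 849. Of the hexokinases, which trap glucose in the cell, Hk1 had 5770, 6964 and 5277, Hk2 149, 148 and 102, and Hk3 267, 445 and 280. Hk3 was thus 0.73 higher on the log2 scale in AtmsKO than in WT at this probe, and 0.22 higher at its other probe. In Atmp38dKO against AtmsKO the brightest probes of Hk1, Hk2 and Hk3 gave log2 differences of -0.40, -0.54 and -0.67. The further probes well above background did not share this size, with -0.09, 0.30 and -0.01 for Hk1 and 0.03 for Hk3, and Hk2 had no other probe. In the same comparison the glucose transporters differed by 0.06 for Slc2a1 and -0.34 for Slc2a3.

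The phosphofructokinase genes, which encode the committing step of glycolysis, differed in opposite directions in Atmp38dKO against WT. Pfkl, the liver-type subunit, had signals of 1383, 1484 and 1204 in WT, AtmsKO and Atmp38dKO, and Pfkm, the muscle type, had 152, 139 and 172. Pfkp, the platelet type, had 136, 172 and 210. The log2 difference of Atmp38dKO against WT was 0.63 for Pfkp at its brightest probe, but 3 other Pfkp probes well above background gave -0.31, -0.25 and -1.25. Aldoc, a second aldolase, had signals of 214, 165 and 187, lowest in AtmsKO.

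At the end of the chain, Pkm, the gene of the pyruvate kinase of most tissues, was lower on both mutant arrays. Its signal was 3932 in WT, 2875 in AtmsKO and 2476 in Atmp38dKO, log2 differences of -0.45 and -0.67. The second probe gave -0.57 and -0.73 and the dimmest -1.97 and -1.51, while the third gave 0.23 and 0.17. The probes of Pkm therefore did not share a direction. The third, whose coordinates span more than its length on the genome and so cross at least 1 intron, is shown here because it was the one that differed, with its position on mm9, the build of the array's coordinates.
Pkm probe 3, chr9:59518501-59519397, plus strand: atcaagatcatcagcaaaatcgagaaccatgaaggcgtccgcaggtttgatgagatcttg

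The lactate dehydrogenase subunits, which interconvert pyruvate and lactate, went opposite ways in AtmsKO. Ldha, the subunit that prevails in glycolytic tissues, had signals of 4529 in WT, 6099 in AtmsKO and 5226 in Atmp38dKO. Ldhb, the subunit that prevails in heart, had 820, 581 and 726. Against WT the AtmsKO array differed by 0.43 for Ldha and -0.50 for Ldhb, a gap of 0.93 that stayed below 2-fold. The second probes gave -0.05 and -0.15, so the higher Ldha signal was seen at its brightest probe only. The monocarboxylate transporters that carry lactate showed a like gap in AtmsKO of 0.91. Slc16a1 (MCT1) had signals of 455, 626 and 436, and Slc16a3 (MCT4), which exports lactate from glycolytic cells, had 46.6, 34.2 and 33.3. Slc16a1 was highest in AtmsKO and Slc16a3 highest in WT.

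**Figure D3:**
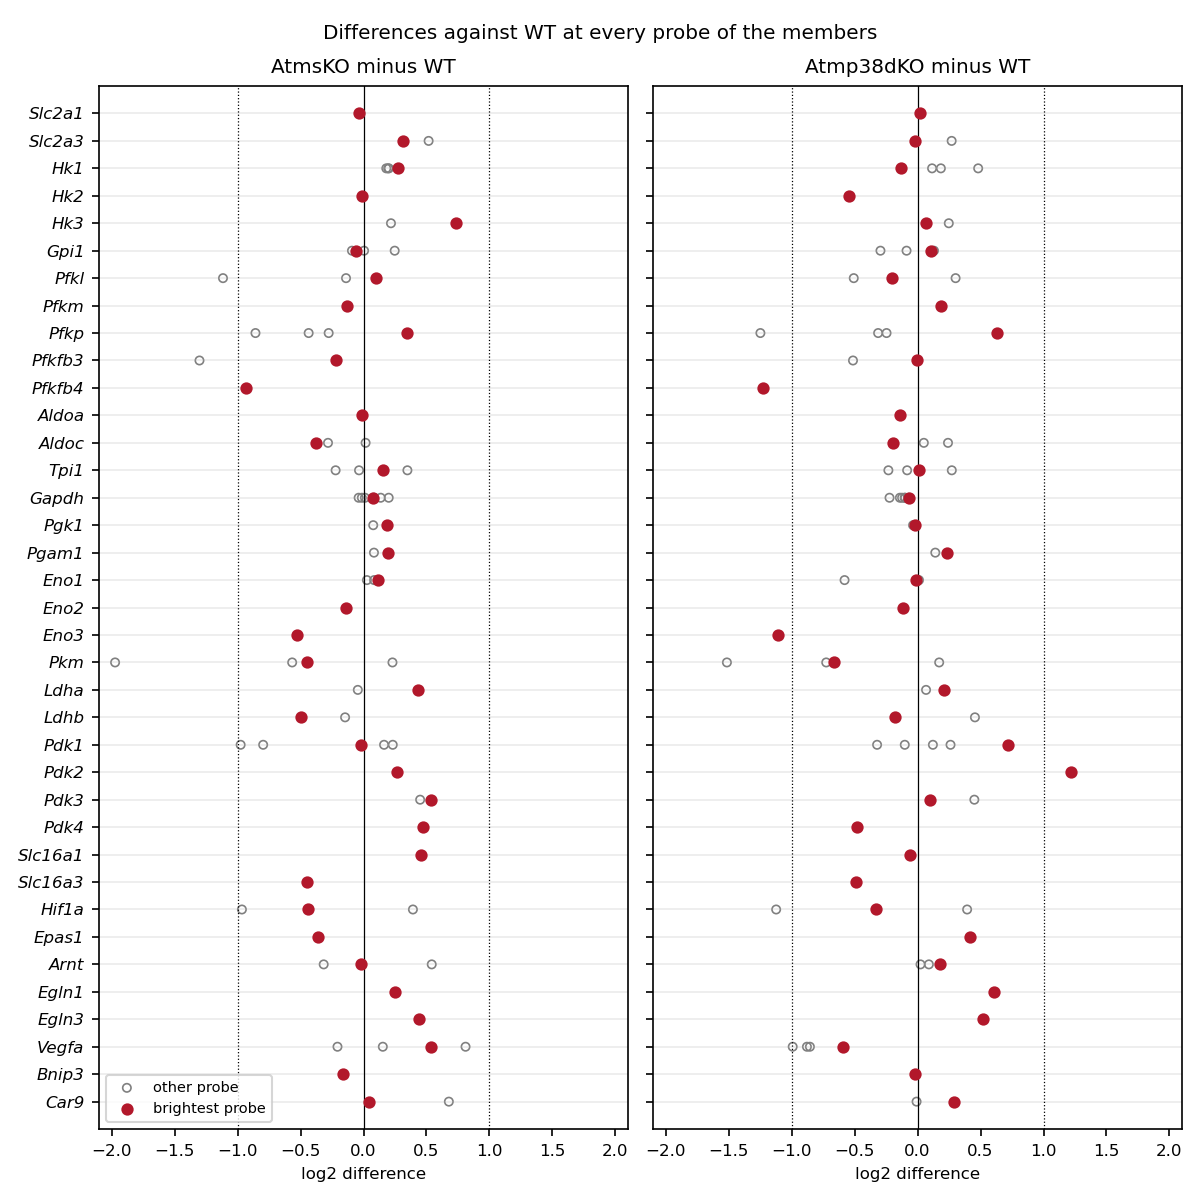
Log2 difference against WT of the AtmsKO array (left) and the array labelled Atmp38dKO (right) for each of the 37 genes, at the brightest probe (red) and at further probes that were above background in both (open grey), with dotted lines at 2-fold. No red point reaches a dotted line on the left, where Pfkfb4 comes closest at -0.94, and 3 pass it on the right, while the points of Pfkp, Pkm and Hif1a, red and open together, lie on both sides of 0 in both panels.

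Of the HIF subunits, Hif1a gave opposite directions at its probes. The brightest Hif1a probe had signals of 196, 145 and 156 in WT, AtmsKO and Atmp38dKO, log2 differences of -0.44 and -0.33 against WT. Its coordinates lie on the strand opposite to the gene, so by its coordinates it does not read Hif1a mRNA. The next probe, on the strand of the gene, had 90.0, 118 and 118, a log2 difference of 0.39 on both mutant arrays. Probe 3 had 46.2, 23.6 and 21.2, or -0.97 and -1.12. The opposite-strand probe is shown because it alone set the value for Hif1a, and it was one of 2 among the 85 probes of the set with a strand to compare, the other being the second probe of Pgk1. The position of the Hif1a probe is given on mm9.
Hif1a probe 1, chr12:75027538-75027597, minus strand: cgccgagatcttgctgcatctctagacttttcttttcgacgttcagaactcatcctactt

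Epas1, which encodes HIF-2α, had signals of 46.9, 36.4 and 62.6 in WT, AtmsKO and Atmp38dKO, so Atmp38dKO was highest and lay 0.78 above AtmsKO on the log2 scale, at its single probe. Arnt, the beta subunit, had 245, 241 and 278. The prolyl hydroxylase genes Egln1 (PHD2) and Egln3 (PHD3), of which both are HIF targets themselves, were lowest in WT. Egln1 had signals of 39.5, 47.1 and 60.1 and Egln3 had 64.8, 87.9 and 92.7. In Atmp38dKO against WT they differed by 0.61 and 0.52.

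**Figure D4:**
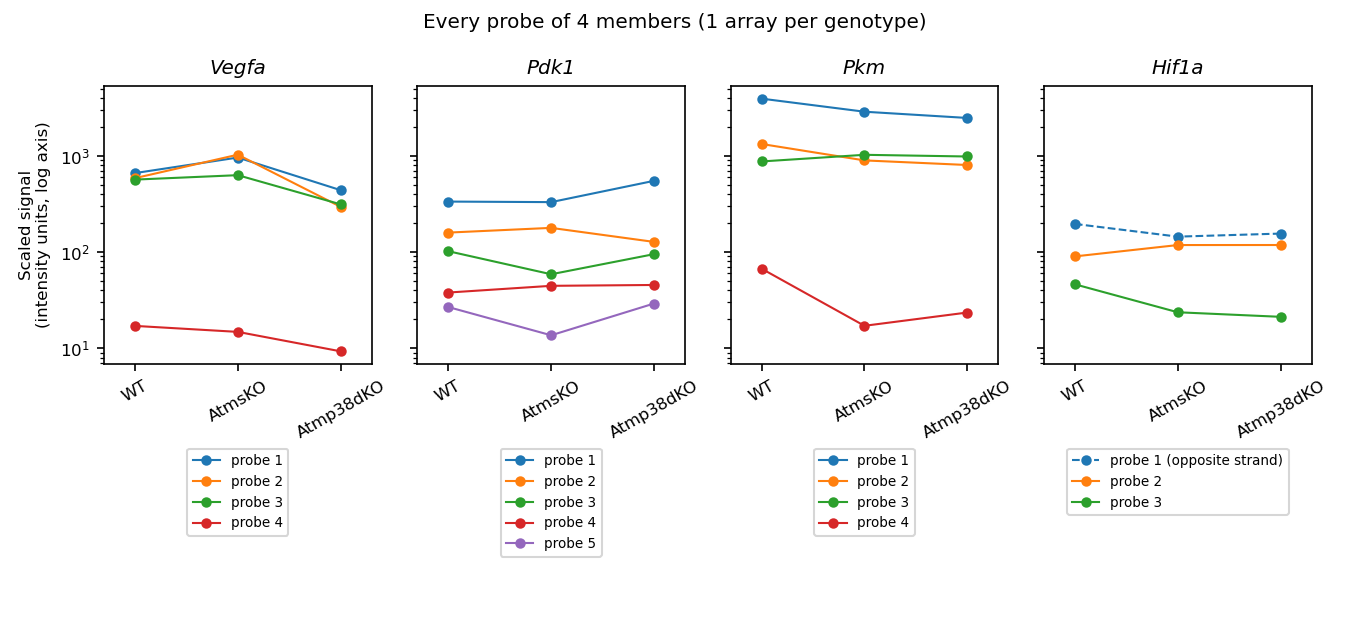
Scaled signal (log axis, intensity units) of every probe of Vegfa, Pdk1, Pkm and Hif1a on the WT, AtmsKO and Atmp38dKO arrays, 1 array each, with probes numbered from the brightest and the Hif1a probe on the opposite strand dashed. All 4 Vegfa lines end lowest at Atmp38dKO, whereas the lines of the other genes run in different directions.

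Other probes were the only check on a difference inside these arrays. Of the 47 further probes of the set that passed the background filter on both arrays, 28 (59.6%) had the same direction as the brightest probe in AtmsKO against WT, 26 (55.3%) in Atmp38dKO against WT and 32 (68.1%) in Atmp38dKO against AtmsKO. Over all genes the shares were 53.0%, 53.5% and 54.4%.

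A wider hand-written list of 69 further genes of glucose metabolism and the hypoxia response was counted in the same way. In AtmsKO against WT 3 of 65 tested were 2-fold higher and 2 lower, in Atmp38dKO against WT 1 of 67 was higher and 3 lower, and in Atmp38dKO against AtmsKO 2 of 67 were higher and 3 lower. The medians were -0.01, 0.01 and 3.66e-05. Their share in either direction, 7.69%, 5.97% and 7.46%, stood beside 8.03%, 8.5% and 7.48% of all genes. Mxi1, a MYC antagonist and HIF target, had signals of 47.3, 119 and 125 in WT, AtmsKO and Atmp38dKO and was thus higher on both mutant arrays. Ero1l, an oxidase of the endoplasmic reticulum, had 138, 341 and 194, highest in AtmsKO, and Dlat, a subunit of the pyruvate dehydrogenase complex, had 123, 56.0 and 85.4, lowest in AtmsKO. P4ha1, a collagen prolyl hydroxylase subunit, had 117, 175 and 65.7, and Galm, which interconverts the anomers of hexoses, had 28.7, 38.3 and 13.9. Both were highest in AtmsKO and lowest in Atmp38dKO, the order also seen at the brightest probe of Vegfa. Both genes, like Vegfa, were picked out as at least 2-fold lower in Atmp38dKO than in AtmsKO. That part of the order therefore follows from the selection. Fbp1, a gluconeogenic phosphatase, had 151, 103 and 232. Tigar, a fructose bisphosphatase induced by p53, had 23.6 in WT and 6.75 and 8.08 on the mutant arrays, close to the lowest signal well above background there.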

How the data were processed

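Cy3-labelled RNA of sorted LT-HSCs was read on 1 Agilent array per genotype. The deposited scanner files hold intensity values per spot, which the authors' contractor made with Agilent Feature Extraction 11.5.1.1, background-subtracted within the array and not normalized between arrays. The authors also deposited log2 values, which equaled log2 of the processed intensity minus the array's 75th percentile within 0.02 for at least 99.6% of probes per array. Control spots and outlier spots (57, 75 and 83 in WT, AtmsKO and Atmp38dKO) were left out, spots of a probe were averaged, and log2 intensity minus the 75th percentile of non-control probes was used. Probes with over 50% of spots flagged as well above background were taken as such. Below that, the array's lowest normalized signal well above background served as a floor. For display, signals were multiplied to a common 75th percentile of 105. This scaling leaves relative levels only. Genes were named by the gene name in the files, with the brightest probe for each. Where at least 1 of the 2 arrays compared was well above background, a gene entered the counts by its difference alone, with no p-value, because 1 array per group gives no replicate. The number of arrays limits the precision, as do differences between probes of a gene.

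Every gene of the set is named in the text. Values per array are given for genes at least 2-fold apart, for isoenzymes of steps that moved apart, and for the brightest gene of each step, and from the wider list for genes at least 2-fold apart and well above background on both arrays, up to 4 per direction. The members and lists were chosen with earlier results of these data known. Promoter windows came from RefSeq tables of GRCm38.p6 and probe coordinates from the files, on mm9, and the builds were kept apart. Functions were tested on simulated data. Python 3.11.15, pandas 2.3.3, R 4.3.3 and limma 3.58.1 (normexp) were used. The sequence of 1 probe is not reported here.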

Additional observations from a re-analysis of the deposited data

How the results depend on the processing

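No paired analysis was possible because there was 1 array per genotype, and leaving out a replicate could not be run for the same reason. Of 888 values of single genes under 8 alternatives (normexp background correction, quantile normalization, centering on the median of probes above background, the deposited log2 values, no floor, probes above background on both arrays, the mean of all probes, names by RefSeq accession), 785 moved by less than 0.076 on the log2 scale, the spread of a difference between repeated spots, and no 2-fold difference changed sign. The medians of the set moved by less than that in every comparison under each of these. With normexp, whose added offset shrinks dim differences, 0 genes were 2-fold lower in Atmp38dKO against WT and 0 in Atmp38dKO against AtmsKO, as Pfkfb4, Eno3 and Vegfa came to -0.61, -0.52 and -0.94. Pdk2 stayed 2-fold higher, at 1.03 or above under all 8. With quantile normalization 2 genes were lower in Atmp38dKO against AtmsKO, the second being Pdk4 at -1.02. At 1.5-fold, 1 was higher and 1 lower in AtmsKO against WT, 4 and 4 in Atmp38dKO against WT, and 3 and 3 in Atmp38dKO against AtmsKO. Taking Hif1a from the brightest probe on its own strand, an alternative chosen after the coordinates were seen, gave 0.39 in place of -0.44 in AtmsKO against WT and 0.39 in place of -0.33 in Atmp38dKO against WT. Folds of dim probes such as Pdk4 rest on small intensities.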

Other observations

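Among the 47 probes that were not the brightest of their gene, 3 lay at least 2-fold apart in each comparison. In AtmsKO against WT these were the dimmest probe of Pkm (-1.97), the second of Pfkfb3 (-1.30) and the third of Pfkl (-1.12). In Atmp38dKO against WT they were the dimmest probe of Pkm (-1.51), the fourth of Pfkp (-1.25) and the third of Hif1a (-1.12), and in Atmp38dKO against AtmsKO probes 2 and 3 of Vegfa (-1.80 and -1.01) and the fifth of Pdk1 (1.097). The dimmest Pkm probe carried an accession of its own and had signals of 67.1, 17.1 and 23.5 in WT, AtmsKO and Atmp38dKO. Of these genes, Vegfa was also 2-fold apart at its brightest probe.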
